A study of Homo sapiens with 6 samples.

Results

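The transcription factor p53 is represented here by 32 of its target genes, taken by name from the 58735 genes of the deposited count table. The genes were chosen by name with the fold changes of this same contrast already known, so every count over them describes these libraries and supports nothing by itself. They were split by role into 5 genes of cell cycle arrest, 3 genes of feedback on p53, 12 genes of apoptosis, 4 genes of DNA repair and nucleotide supply, 6 metabolic genes and 2 others. All 32 genes were found in the table and 31 had enough reads to be tested. Expression was measured by RNA-seq in MCF10A, an immortalized, nonmalignant line of human breast epithelial cells. In the siDAB2IP group, 3 libraries came from cells transfected with siRNA against DAB2IP, which encodes a Ras GTPase-activating protein and scaffold of stress signaling. In the siControl group, 3 libraries came from cells transfected with a nontargeting pool. The labels give no other alteration. Both groups were grown in DMEM/F12 medium with horse serum, insulin, epidermal growth factor, cholera toxin, hydrocortisone and antibiotics, and were collected 48 hours after transfection. The labels name a single line and a single reagent against DAB2IP, so loss of DAB2IP and other effects of that reagent cannot be told apart. Nothing says that the libraries came from separate cultures, and p-values therefore measure only the spread between these libraries.

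As background, p53 is a tumor suppressor protein that stress such as DNA damage stabilizes. It binds an element made of a repeated 10-base unit and activates genes that stop the cell cycle, start apoptosis, repair DNA and adjust metabolism. MDM2, itself a target, marks p53 for degradation and closes a feedback loop. Much of the control of p53 acts on the protein, which was not measured here. The arrest gene CDKN1A encodes p21, which inhibits cyclin-dependent kinases and, through the DREAM repressor complex, lowers the transcription of many mitotic genes. MCF10A is known to have lost CDKN2A, the locus of the p53 activator ARF. CDKN2A counts were 0, 2 and 0 in the siControl libraries and 1, 3 and 4 in the siDAB2IP libraries, too few to be tested.

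The promoters of the 32 genes were read from RefSeq sequences of GRCh38.p14, which held a window for 27 of them, from 250 bases before to 50 bases after each annotated start. A p53 element was counted where 20 bases held both 10-base units with the core C and G of each and at most 3 other mismatches. That limit was set after expression values had been seen. Such an element stood in 9 of the 27 genes (33.3%), against 373 of 27305 genes with a window in the table (1.37%). The exact 10-base unit stood in 6 of the 27 (22.2%), against 8.06% of all genes. Of 21 further p53 targets with a window, from a list given below, 2 held an element (9.52%) and 3 the exact unit (14.3%). The genes were picked as p53 targets, so nothing is read from these shares. A match is a description of the letters and not a site of binding, and elements farther away were not searched. Of the 7 genes called higher in siDAB2IP cells, 6 had a window and 2 held an element, FDXR and GDF15. Of the 24 tested genes without a call, 20 had a window and 6 held an element. The elements of 6 genes are printed below with up to 5 bases on each side, because they show the match in called and uncalled genes side by side. Capitals mark the bases that match the p53 element, and each is read 5′ to 3′ on the strand of its gene.
FDXR: ggcccGGGCAgGagCGGGCTTGCCCtgcgg
GDF15: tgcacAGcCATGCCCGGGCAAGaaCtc
MDM2: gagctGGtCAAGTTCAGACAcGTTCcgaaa
AEN: gagccGGGCTTGCCCGGGCATGTgggagct
DDB2: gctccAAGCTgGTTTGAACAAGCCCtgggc
SESN1: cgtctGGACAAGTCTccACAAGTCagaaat
The element of FDXR lay at chr17:74872996-74873015 on the minus strand, 21 to 2 bases before the start. That of GDF15 lay at chr19:18386186-18386205 on the plus strand, 29 to 48 bases into the transcribed part. The MDM2 element was at chr12:68808923-68808942 on the plus strand. The elements of AEN at chr15:88621306-88621325 and DDB2 at chr11:47214969-47214988 were on the plus strand, and that of SESN1 at chr6:109009018-109009037 on the minus strand. DDB2 had the closest match, with 19 of 20 bases, and MDM2 and AEN matched at 18, while FDXR, GDF15 and SESN1 matched at 17. Elements were also matched in PMAIP1, FAS and TP53AIP1.

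CDKN1A, the arrest gene with the largest rise, held no such element in its window. Its 250 bases before the start, chr6:36678464-36678713 on the plus strand, are printed because they carry GC boxes (GGGCGG on either strand), the known contact of Sp1, here in capitals.
CDKN1A: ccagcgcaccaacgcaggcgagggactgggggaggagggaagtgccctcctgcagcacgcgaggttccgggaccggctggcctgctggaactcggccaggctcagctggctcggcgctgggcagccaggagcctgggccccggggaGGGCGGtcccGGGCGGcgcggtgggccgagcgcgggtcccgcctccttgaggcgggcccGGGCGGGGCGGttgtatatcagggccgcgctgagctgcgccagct
The stretch held 4 GC boxes, the last pair overlapping. A GC box on either strand stood in the upstream part of 42.6% of all promoter windows.

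DAB2IP itself checked the labels. Its CPM, the count scaled to library totals with TMM factors, was 103, 94.2 and 77.4 in the siControl libraries and 27.5, 25.6 and 22.4 with siDAB2IP, so that DAB2IP fell in each of them (log2 fold change -1.86, SE 0.13, edgeR adjusted p = 9.71e-05). Library totals ran from 16353783 to 21916062 counts, and 3 counts correspond to 0.139 to 0.187 CPM. All 7 epithelial markers were above that floor in every library, with sums of 9030 to 11105 CPM in siControl and 6535 to 7970 CPM in siDAB2IP. Markers of blood, endothelial, fibroblast, smooth muscle and luminal cells summed to 25.9 to 30.5 CPM in siControl and 32.01 to 39.3 CPM in siDAB2IP. Of those 9 markers, 4 were above the floor in every library, PGR was at 0 in all and 5 were below 1 CPM in all. The part of these markers in the results was not tested. Mitochondrial genes took 12.8% of the counts in siDAB2IP replicate 3 and 9.59% to 10.9% in the other libraries. In the annotation, 14 of the 32 genes share exon bases with another gene, 13 of them with a gene on the opposite strand. The strand setting of the count is not given in the sources used here, so reads of such pairs cannot be told apart.

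After DAB2IP knockdown, 7 of the 31 tested p53 targets rose and 0 fell by the edgeR quasi-likelihood test, at a Benjamini-Hochberg adjusted p under 0.05 over all 15430 genes tested. GDF15 and CDKN1A rose most, followed by FDXR and BAX, with smaller rises of SPATA18, GADD45A and PLK3. Among all genes tested, 6.55% rose and 7.65% fell. At an unadjusted p under 0.05, 14 targets were higher and 1 was lower, against 14.5% and 15.5% of all genes. DESeq2 called 11 higher and 1 lower, against 1096 and 1374 of the 15430 genes. The log2 fold change was above 0 for 26 of the 31 targets, against 7884 of the 15430 genes. Its median was 0.31 for the targets, against 0.0090 over all genes. The libraries of the groups did not overlap for 16 targets that were higher and 1 that was lower in siDAB2IP, against 17.6% and 18.3% of all genes. Because the genes were chosen with these results known, nothing is read from the differences to those shares. With the replicate number as a block, 12 targets rose and 1 fell, beside 9.59% and 11.4% of all genes. The 5 targets that the block added to the 7 were MDM2, TP53INP1, AEN, XPC and RRM2B, and the target called lower was PLK2. Leaving out 1 library moved the number that rose to 4 without siControl replicate 1, to 3 without siControl replicate 2 or 3, to 5 without siDAB2IP replicate 1, to 10 without siDAB2IP replicate 2 and to 6 without siDAB2IP replicate 3. The share of all genes called in these fits is not given, here or for the lists below. A shift particular to the listed genes can therefore not be told apart from a shift over all genes. CDKN1A, BAX and GDF15 were called in each of the 16 other settings in which single genes were fitted.

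**Figure D1:**
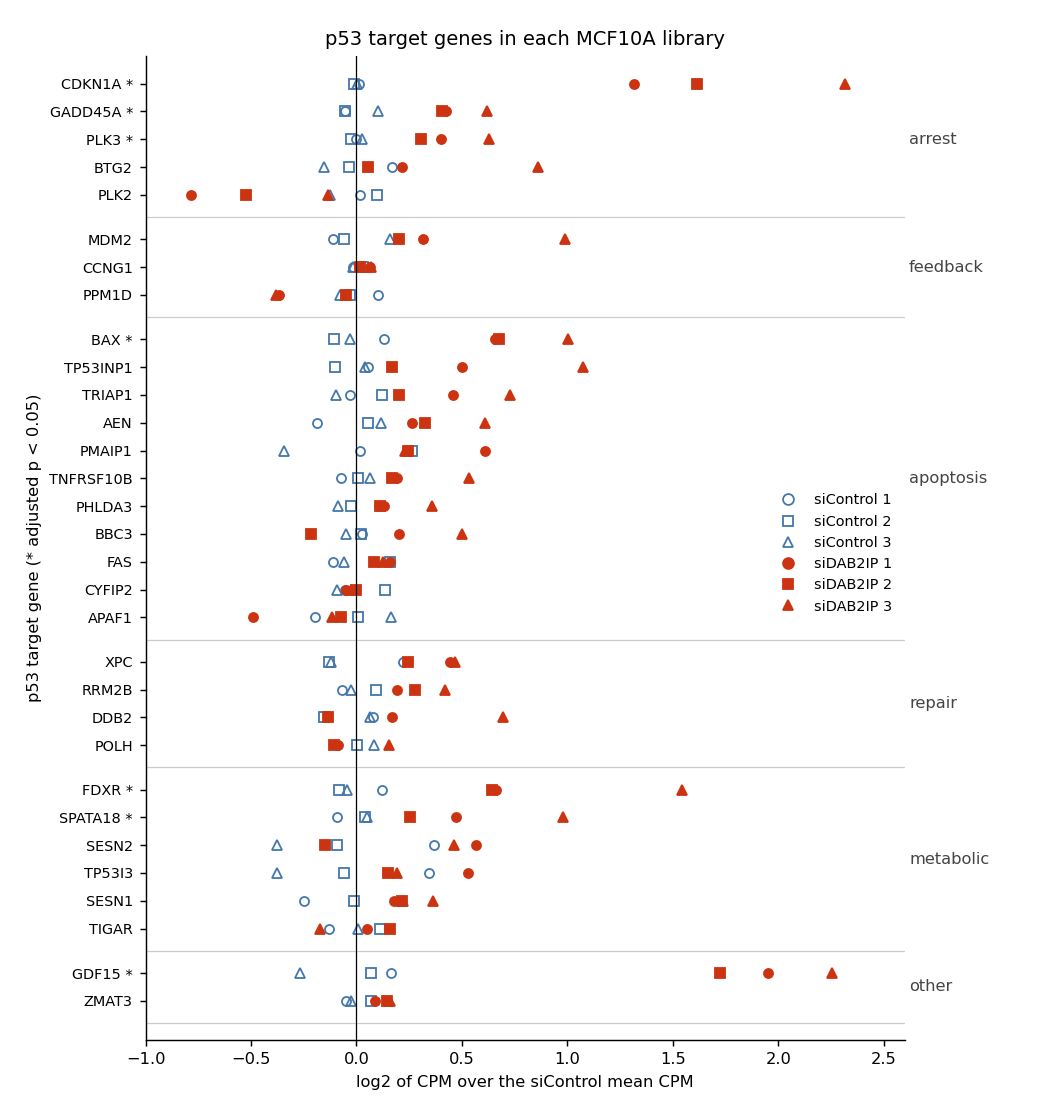
Log2 of the CPM in each of the 6 libraries over the siControl mean (horizontal axis) for the p53 targets (vertical axis, grouped by role, * adjusted p under 0.05). The siDAB2IP points of CDKN1A, GDF15, BAX and FDXR stand to the right of every siControl point, and siDAB2IP replicate 3 is the rightmost point for most genes.

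Of the 5 arrest genes, 3 rose and 0 fell, beside 6.55% and 7.65% of all genes tested. The median log2 fold change of the 5 was 0.45. CDKN1A (chr6:36676460-36687339), the gene of p21, had 149, 147 and 148 CPM in the siControl libraries. The siDAB2IP libraries had 369, 454 and 739 CPM. The siControl libraries were nearly equal, while the siDAB2IP libraries differed among themselves and each lay well above them, 3.51-fold on average (log2 fold change 1.81, SE 0.22, edgeR adjusted p = 0.00135). The call held without both libraries numbered 3, with a log2 fold change of 1.47. CDKN1A shares 146 exon bases with the antisense gene DINOL, which had 53 counts over all libraries against 35567 for CDKN1A.

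GADD45A (chr1:67685061-67688338), a stress sensor that restrains the cell cycle, had 25.05, 25.02 and 27.9 CPM in siControl and 34.9, 34.4 and 39.9 CPM in siDAB2IP. The groups did not overlap and the rise was 1.40-fold (log2 fold change 0.49, SE 0.11, edgeR adjusted p = 0.0207). The call was lost without siControl replicate 1, 2 or 3, where the edgeR adjusted p was 0.0823, 0.117 and 0.0517. PLK3 (chr1:44800225-44805990), a stress-responsive Polo-like kinase, had 28.97, 28.5 and 29.5 CPM in siControl and 38.3, 35.9 and 44.9 CPM in siDAB2IP. It rose 1.37-fold with no overlap of the groups (log2 fold change 0.45, SE 0.12, edgeR adjusted p = 0.0291). That call was lost without siControl replicate 1, 2 or 3 and without siDAB2IP replicate 1, with edgeR adjusted p of 0.0959, 0.136, 0.0936 and 0.0618. PLK3 shares 78 exon bases with TCTEX1D4 on the opposite strand, which had 127 counts against 3683.

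The remaining arrest genes were not called. PLK2, a Polo-like kinase related to PLK3, went the other way: it had 57.7, 61.1 and 52.4 CPM in siControl and 33.2, 39.7 and 52.0 CPM in siDAB2IP. The groups did not overlap, although siDAB2IP replicate 3 lay just under the lowest siControl library. The log2 fold change was -0.46 (SE 0.15, edgeR adjusted p = 0.0764), and with the block the adjusted p was 0.0455. Without siDAB2IP replicate 3 it was -0.65, with an edgeR adjusted p of 0.00321, and without both libraries numbered 3 it was -0.71, with an adjusted p of 0.00133. PLK2 was called in 5 of 16 other settings. The transcriptional cofactor BTG2, which restrains proliferation, had 62.4, 54.1 and 49.9 CPM in siControl and 64.4, 57.5 and 101 CPM in siDAB2IP. Only siDAB2IP replicate 3 stood out, and the log2 fold change of 0.42 (SE 0.19, edgeR adjusted p = 0.169) was 0.066 without both libraries numbered 3.

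**Figure D2:**
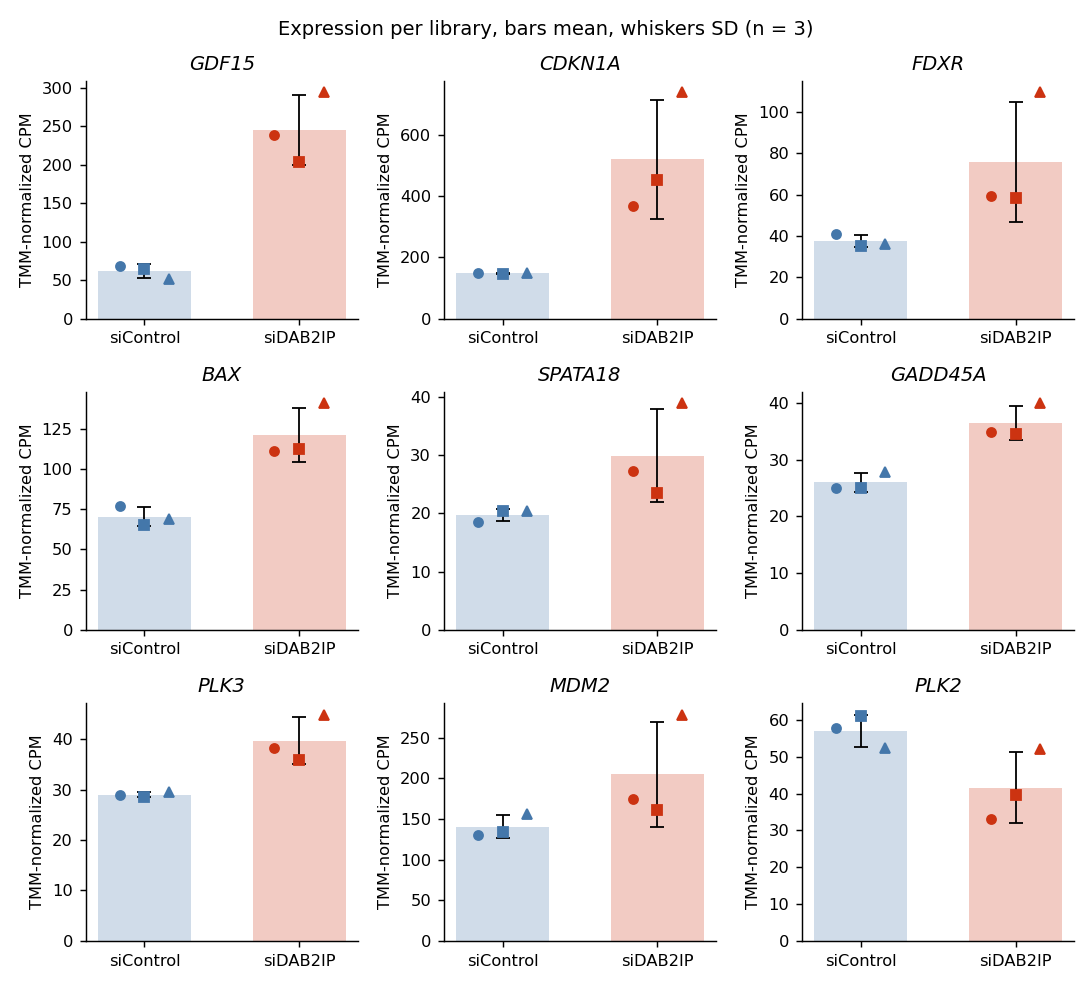
TMM-normalized CPM (vertical axis, starting at 0) in siControl and siDAB2IP for the 7 targets that rose, MDM2 and PLK2. Points are libraries, with a marker for each replicate number, bars are means and whiskers are SD (n = 3). CDKN1A is near 148 CPM in every siControl library and reaches 739 CPM in siDAB2IP replicate 3, and only PLK2 is lower in siDAB2IP.

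None of the 3 feedback genes passed the test, beside 6.55% that rose and 7.65% that fell among all genes tested. The median log2 fold change of the 3 was 0.050. MDM2 (chr12:68808176-68850686), the ubiquitin ligase that degrades p53, had 130, 135 and 156 CPM in siControl and 175, 162 and 279 CPM in siDAB2IP. Every siDAB2IP library was above every siControl library, by a narrow margin in replicate 2 and a wide margin in replicate 3. The log2 fold change was 0.55 (SE 0.19, edgeR adjusted p = 0.0818). The adjusted p was 0.0168 with the block, 0.0263 by DESeq2 and 0.000405 with no filter on low counts. Without siDAB2IP replicate 2 the log2 fold change was 0.69 (edgeR adjusted p = 0.0453), and without both libraries numbered 3 it was 0.34 (adjusted p = 0.0309). MDM2 was thus called in 5 of 16 other settings. It was not called without siControl replicate 1, 2 or 3 (edgeR adjusted p 0.239, 0.249 and 0.132) or without siDAB2IP replicate 1 or 3 (0.0743 and 0.113). By limma on log2(FPKM + 1) the adjusted p was 0.149, and 0.328 over all genes with a count. PPM1D, the phosphatase that turns off p53 and the kinases upstream of it, had 12.6 ± 0.829 CPM in siControl and 10.5 ± 1.42 in siDAB2IP (SD, n = 3, log2 fold change -0.26, edgeR adjusted p = 0.299). CCNG1, cyclin G1, was nearly level, at 127 ± 2.44 and 132 ± 2.70 CPM (log2 fold change 0.050, edgeR adjusted p = 0.751).

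Among the apoptosis genes, 1 of the 11 tested rose and 0 fell, beside 6.55% and 7.65% of all genes tested. The 1 that rose is near the background share. The median log2 fold change of the 11 was 0.31. BAX (chr19:48954815-48961798), which forms pores in the outer mitochondrial membrane, had 76.9, 65.2 and 68.9 CPM in siControl and 111, 112 and 141 CPM in siDAB2IP. The groups were far apart and the rise was 1.73-fold (log2 fold change 0.79, SE 0.12, edgeR adjusted p = 0.00372). The BH3-only proteins upstream of BAX were not called. BBC3 (PUMA) had 12.04 ± 0.358 CPM in siControl and 13.7 ± 3.35 in siDAB2IP (log2 fold change 0.19, edgeR adjusted p = 0.536), and PMAIP1 (NOXA) had 8.20 ± 1.69 and 10.6 ± 1.65 (0.37, adjusted p = 0.24). Neither was separated between the groups. APAF1, the scaffold of the apoptosome, had 16.2 ± 2.001 and 13.95 ± 2.13 CPM (log2 fold change -0.22, edgeR adjusted p = 0.414).

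A set of apoptosis genes lay near the threshold. TP53INP1, a nuclear cofactor of p53 that also acts in autophagy, had 36.4 ± 2.13 CPM in siControl and 56.3 ± 18.3 in siDAB2IP (log2 fold change 0.63, edgeR adjusted p = 0.0569, with the block 0.0207, without siDAB2IP replicate 2 0.0164). AEN, an exonuclease of apoptotic cells, had 38.6 ± 4.14 and 51.2 ± 6.68 CPM (0.41, edgeR adjusted p = 0.0583, with the block 0.0169). TRIAP1, a mitochondrial protein that counters apoptosis, had 21.1 ± 1.63 and 29.3 ± 5.36 CPM (0.48, edgeR adjusted p = 0.0606, without siDAB2IP replicate 2 0.0308). None of these groups overlapped. TP53INP1 and AEN were each called in 4 of 16 other settings, and TRIAP1 in 3 of 16. The death receptors were not called either. TNFRSF10B, the TRAIL receptor DR5, had 728 ± 35.8 and 902 ± 132 CPM (log2 fold change 0.31, edgeR adjusted p = 0.14), and FAS had 102 ± 10.4 and 111 ± 2.82 CPM (0.12, adjusted p = 0.464). PHLDA3, which inhibits AKT, had 120 ± 8.32 and 138 ± 13.7 CPM (0.20, edgeR adjusted p = 0.229). CYFIP2 was at 27.5 ± 2.40 and 27.1 ± 0.451 CPM (-0.026, edgeR adjusted p = 0.909). TP53AIP1 had between 6 and 12 counts in each library and was not tested.

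No repair gene passed the test, beside 6.55% that rose and 7.65% that fell among all genes tested. The median log2 fold change of the 4 was 0.29. XPC, the damage sensor of nucleotide excision repair, had 42.1 ± 6.04 CPM in siControl and 55.1 ± 4.56 in siDAB2IP without overlap (log2 fold change 0.39, edgeR adjusted p = 0.062). Its adjusted p was 0.0239 with the block and 0.044 without siControl replicate 1. XPC was called in 4 of 16 other settings. XPC shares 318 exon bases with LSM3 on the opposite strand, which had 1967 counts against 5192. RRM2B, a ribonucleotide reductase subunit, had 108 ± 6.27 and 133 ± 10.5 CPM, also without overlap (0.30, edgeR adjusted p = 0.0722, with the block 0.0447). DDB2, the partner of XPC in damage recognition, had 34.9 ± 3.03 and 42.5 ± 12.6 CPM (0.28, edgeR adjusted p = 0.342). The translesion polymerase POLH was level at 31.8 ± 1.93 and 31.6 ± 3.22 CPM (-0.0089, edgeR adjusted p = 0.972), and its sign changed with the scaling by library size only.

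Of the 6 metabolic genes, 2 rose and 0 fell, beside 6.55% and 7.65% of all genes tested. The median log2 fold change of the 6 was 0.31. FDXR (chr17:74862497-74873031), the reductase that passes electrons to mitochondrial ferredoxin, had 40.9, 35.4 and 36.3 CPM in siControl and 59.3, 58.5 and 109 CPM in siDAB2IP. All siDAB2IP libraries were above all siControl libraries and replicate 3 was far above the other two, with a 2.02-fold rise (log2 fold change 1.01, SE 0.22, edgeR adjusted p = 0.0153). The log2 fold change was 0.63 (edgeR adjusted p = 0.00212) without both libraries numbered 3, and the call was lost without siControl replicate 1, 2 or 3 (adjusted p 0.0531, 0.0743 and 0.0629). SPATA18 (chr4:52051331-52097292), a protein of mitochondrial quality control, had 18.5, 20.3 and 20.4 CPM in siControl and 27.4, 23.6 and 38.9 CPM in siDAB2IP. It rose 1.51-fold without overlap, close to the threshold (log2 fold change 0.60, SE 0.18, edgeR adjusted p = 0.0492). The SPATA18 call held in 5 of 16 other settings and was lost without siControl replicate 1, 2 or 3 and without siDAB2IP replicate 1 or 3, with edgeR adjusted p of 0.164, 0.153, 0.128, 0.0705 and 0.0648.

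The stress-induced sestrins, which restrain mTORC1, were not called. SESN1 had 37.5 ± 6.11 CPM in siControl and 44.7 ± 3.07 in siDAB2IP (log2 fold change 0.25, edgeR adjusted p = 0.226), and SESN2 had 34.8 ± 9.26 and 43.6 ± 10.7 CPM (0.33, adjusted p = 0.347). TP53I3, a quinone oxidoreductase, had 43.4 ± 10.9 and 53.5 ± 7.96 CPM (0.30, edgeR adjusted p = 0.288). For all 3 the groups overlapped. TIGAR, a phosphatase that lowers glycolytic flux, was the least expressed tested target at 1.63 ± 0.135 and 1.66 ± 0.192 CPM (0.016, edgeR adjusted p = 0.978). It shares 1711 of its 4017 exon bases with AC008012.1 on the same strand, which had 0 counts against 178. The part of this overlap in the low level of TIGAR was not tested.

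Outside these roles, GDF15 (chr19:18374731-18389176), a secreted stress cytokine of the TGF-beta superfamily, had the largest change of the p53 targets. It had 69.0, 64.5 and 51.1 CPM in siControl and 238, 203 and 294 CPM in siDAB2IP. The groups were far apart, 3.98-fold on average (log2 fold change 1.99, SE 0.16, edgeR adjusted p = 0.000164), and the log2 fold change was 1.72 without both libraries numbered 3. ZMAT3, an RNA-binding zinc finger protein, had 74.5 ± 3.25 and 81.6 ± 2.12 CPM. Its groups did not overlap, yet the difference was small (log2 fold change 0.13, edgeR adjusted p = 0.362).

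Levels of different genes were compared per length, in the deposited FPKM. In siControl the median of the 32 targets was 9.44 FPKM, 15 had at least 10 FPKM and 2 were below 1 FPKM. TNFRSF10B was highest at 140 ± 6.94 FPKM (SD, n = 3). CDKN1A followed at 48.2 ± 0.284, then CCNG1 at 40.8 ± 0.889, PHLDA3 at 37.9 ± 2.598, GDF15 at 29.2 ± 4.43 and BAX at 26.9 ± 2.23 FPKM. The SDs of CCNG1 and PHLDA3, and those of GDF15 and BAX, overlap. TIGAR at 0.403 FPKM, with the exon overlap given above, and TP53AIP1 at 0.140 FPKM were lowest. In siDAB2IP cells CDKN1A reached 169 ± 62.6 FPKM, next to TNFRSF10B at 173 ± 25.2 FPKM, and GDF15 reached 116 ± 21.7 FPKM. Of the called genes CDKN1A had the highest level in siControl and SPATA18 the lowest, at 3.96 FPKM in siControl and 5.995 FPKM in siDAB2IP. The abundant CCNG1, at 42.2 FPKM in siDAB2IP, was not called.

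**Figure D3:**
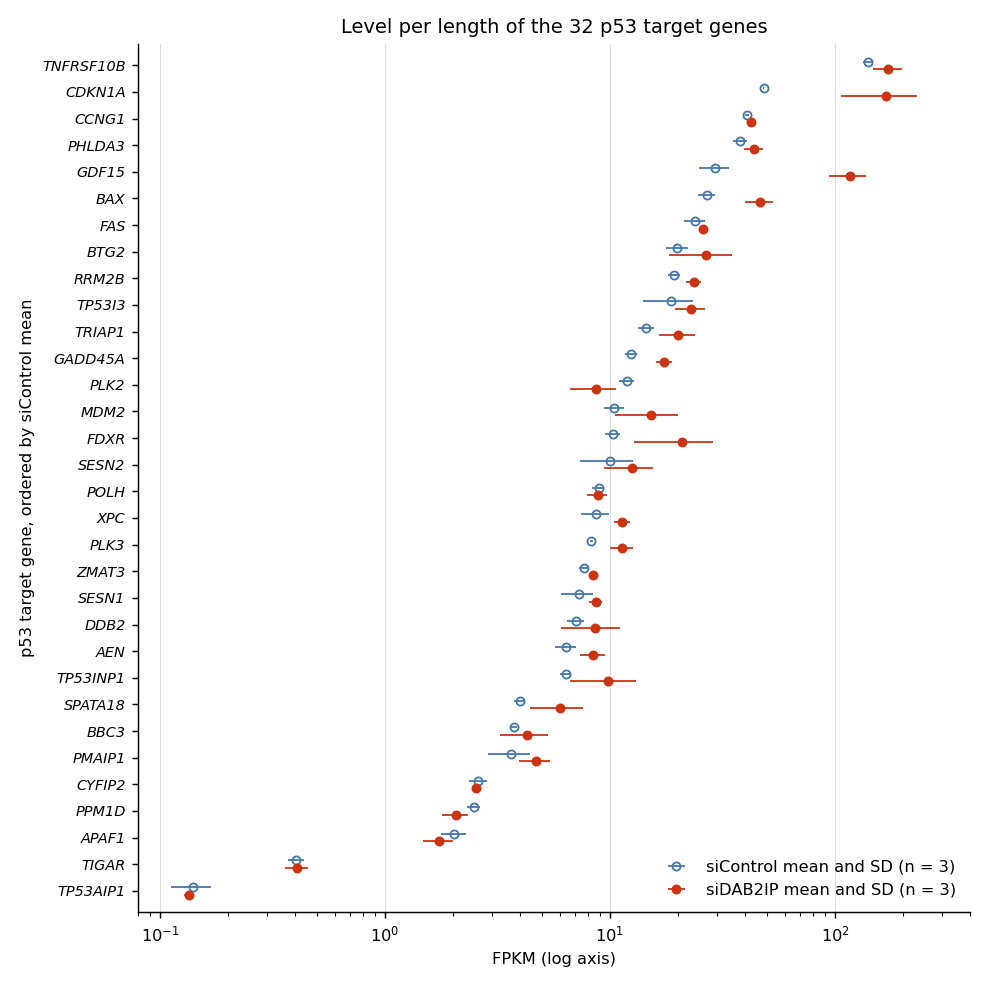
FPKM (horizontal log axis) of the 32 p53 targets, ordered by the siControl mean, with mean and SD (n = 3) of siControl (open) and siDAB2IP (filled). TNFRSF10B is at the top with 140 FPKM in siControl, and CDKN1A and GDF15 show the widest gaps between the groups.

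The rise was uneven over the siDAB2IP libraries. The median log2 difference of the targets from the siControl mean was 0.22, 0.17 and 0.49 in siDAB2IP replicates 1, 2 and 3, and between -0.023 and 0.0027 in the siControl libraries. When libraries of the same number were set against each other, 20 targets were above 0 in all 3 pairs and 3 were below 0 in all 3. The shares of all genes for these counts are not given, so nothing is read from the counts. Pair 3 gave the highest difference for 25 of the 31 tested targets (80.6%), against 35.8% of all genes tested and 53.7% of the genes that rose. As given above, siDAB2IP replicate 3 also had the highest mitochondrial share of counts, whose part in this was not tested. Without both libraries numbered 3, a setting added after the values were seen, 7 targets rose and 1 fell. They were not the same 7 as in the main fit: MDM2 was called (edgeR adjusted p = 0.0309) and SPATA18 was not (0.0756). Of the 15317 genes tested there, 1049 rose and 1298 fell. The median over the targets was 0.21.

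The regulators of p53 in a separate list included no gene that rose. Of 23 listed genes of the p53 family and regulators of p53, 22 were tested, 0 rose and 5 fell, with a median log2 fold change of -0.19, beside 6.55% that rose and 7.65% that fell among all genes tested. At an unadjusted p under 0.05, 0 were higher and 11 lower, against 14.5% and 15.5% of all genes. DESeq2 called 0 higher and 6 lower, against 1096 and 1374 of the 15430 genes. The family member TP73 had 12.02, 9.80 and 6.58 CPM in siControl and 5.25, 2.71 and 2.44 CPM in siDAB2IP (log2 fold change -1.45, edgeR adjusted p = 0.0163). Its antisense gene TP73-AS1 shares 633 of its exon bases and had 4786 counts against 700, and the TP73 call was lost without siControl replicate 1 or 2 (edgeR adjusted p 0.0621 and 0.0607).

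TP63, the family member that marks basal epithelium, had 66.9, 60.5 and 50.1 CPM in siControl and 49.4, 41.0 and 29.4 CPM in siDAB2IP (log2 fold change -0.57, edgeR adjusted p = 0.0615). Its difference was called with the block (adjusted p = 0.00456), without siDAB2IP replicate 1 (0.0295) and without both libraries numbered 3 (0.0124). In all, TP63 was called in 6 of 16 other settings, and in 1 of the 6 fits without a single library. The checkpoint kinases CHEK1 and CHEK2 fell, with log2 fold changes of -0.73 (edgeR adjusted p = 0.0101) and -0.48 (adjusted p = 0.0445). CHEK1 shares 80 exon bases with STT3A on the same strand, which had 34419 counts against 2956. CHEK2 shares 301 with HSCB on the opposite strand, which had 378 counts against 1802. PML, the organizer of nuclear bodies, and HIPK2, a kinase that phosphorylates p53, fell with log2 fold changes of -0.43 (edgeR adjusted p = 0.0195) and -0.41 (adjusted p = 0.0439). MDM4, the inhibitor of p53 related to MDM2, was not called (-0.11, edgeR adjusted p = 0.545). The number that fell was 1 when siControl replicate 1 or 2 was left out and 3 when any other single library was. The HIPK2 call was lost without any 1 of the 6 libraries (edgeR adjusted p 0.05001 to 0.12) and the CHEK2 call without any of them but siDAB2IP replicate 2. The PML call was lost without siControl replicate 1 or 2 or siDAB2IP replicate 1 or 2 (edgeR adjusted p 0.052 to 0.0674).

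A list of 30 further p53 targets, of which 29 were matched by name and tested, had 9 that rose, 2 that fell and a median log2 fold change of 0.17. Among all genes tested, 6.55% rose and 7.65% fell, so the 2 that fell are near the background share. With the block 9 rose and 3 fell, beside 9.59% and 11.4% of all genes, so the 3 that fell are also near the background share. The gene that the block added was DRAM1, an autophagy regulator (log2 fold change -0.49, edgeR adjusted p = 0.0812, with the block 0.0396). The 10 with the smallest p are named. LIF, a cytokine of the interleukin-6 family, had 7.41, 9.05 and 7.98 CPM in siControl and 23.1, 23.9 and 33.2 CPM in siDAB2IP (log2 fold change 1.71, edgeR adjusted p = 0.000619). PIDD1, the scaffold that activates caspase-2, had 77.1, 74.4 and 83.1 CPM and 123, 119 and 244 CPM (1.05, edgeR adjusted p = 0.0194). PIDD1 shares 107 exon bases with RPLP2 on the opposite strand, which had 31213 counts against 12797, and its call was lost without siControl replicate 1, 2 or 3 (edgeR adjusted p 0.079, 0.0869 and 0.0621). The lysosomal enzyme FUCA1 (log2 fold change 0.84, edgeR adjusted p = 0.00893), the TRAIL receptor TNFRSF10A (0.46, 0.0135) and the TRAIL decoy receptor TNFRSF10D (0.33, 0.0432) rose. The cell cycle cofactor SERTAD1 (0.61, edgeR adjusted p = 0.036), the ubiquitin ligase subunit FBXO22 (0.37, 0.0353) and the cotransporter SLC12A4 (0.37, 0.0337) rose too. The FBXO22 call was lost without any 1 of the 6 libraries (edgeR adjusted p 0.0503 to 0.166). The calls of SLC12A4 and TNFRSF10D held only without siDAB2IP replicate 3 and that of SERTAD1 only without siDAB2IP replicate 2, with edgeR adjusted p otherwise between 0.0556 and 0.161. The TNFRSF10A call was lost without siControl replicate 1 or 2 (edgeR adjusted p 0.0575 and 0.073). TNFRSF10A shares 224 exon bases with TNFRSF10A-AS1 on the opposite strand, which had 1653 counts against 16695.

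PERP went the opposite way. This desmosomal and apoptosis-related membrane protein of epithelia had 1258, 1370 and 1301 CPM in siControl and 667, 617 and 423 CPM in siDAB2IP. Every siDAB2IP library was far below every siControl library (log2 fold change -1.20, SE 0.17, edgeR adjusted p = 0.00252). KITLG, the ligand of the receptor KIT, had 16.4, 17.3 and 27.4 CPM in siControl and 6.09, 6.26 and 8.41 CPM in siDAB2IP (-1.56, edgeR adjusted p = 0.00303). The number of further targets that rose was 2 when siControl replicate 1 or 2 was left out, 3 for siControl replicate 3, 5 for siDAB2IP replicate 1 or 2 and 6 for siDAB2IP replicate 3.

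Beside the rise of CDKN1A, 15 mitotic genes known to be repressed through p21 and DREAM were all below 0, against 7546 of the 15430 genes. Their median log2 fold change was -1.15, and 0 rose and 9 fell, beside 6.55% and 7.65% of all genes tested. CDK1, the mitotic kinase, had 30.4, 42.9 and 49.3 CPM in siControl and 16.6, 27.4 and 8.81 CPM in siDAB2IP (log2 fold change -1.21, edgeR adjusted p = 0.0365). The cyclins CCNB2 (-1.38, edgeR adjusted p = 0.0445) and CCNA2 (-1.17, 0.0494) fell, as did the anaphase activator CDC20 (-1.32, 0.0296) and the phosphatase CDC25C (-1.60, 0.0271). CDC25C shares 293 exon bases with FAM53C on the opposite strand, which had 7078 counts against 613. CCNA2 shares 254 with EXOSC9 on the opposite strand, which had 2637 counts against 2875. The transcription factor MYBL2 (-1.53, edgeR adjusted p = 0.0223), the centriole kinase PLK4 (-1.25, 0.0193) and the cytokinesis factors ECT2 (-0.66, 0.0376) and KIF23 (-0.87, 0.0428) also fell. The list's median was -1.11, -0.54 and -2.36 in siDAB2IP replicates 1, 2 and 3, and -0.24, 0.040 and 0.19 in siControl replicates 1, 2 and 3. The siDAB2IP medians thus fell in the opposite order to the medians of the p53 targets, with replicate 3 at the extreme in both. CDKN1A itself had 369, 454 and 739 CPM in siDAB2IP replicates 1, 2 and 3, so replicates 1 and 2 stood in a different order for that gene. A link between these lists was not tested. The calls depended on the libraries. When 1 was left out, 4 genes fell without siControl replicate 1, 0 without siControl replicate 2 or 3, 1 without siDAB2IP replicate 1 and 13 without siDAB2IP replicate 2 or 3. With the block 13 fell, beside 11.4% of all genes. DESeq2 called 5 lower, beside 1374 of the 15430 genes. The lists of regulators, further targets and p21-DREAM genes were chosen with earlier results known and are no independent evidence of a direction.

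**Figure D4:**
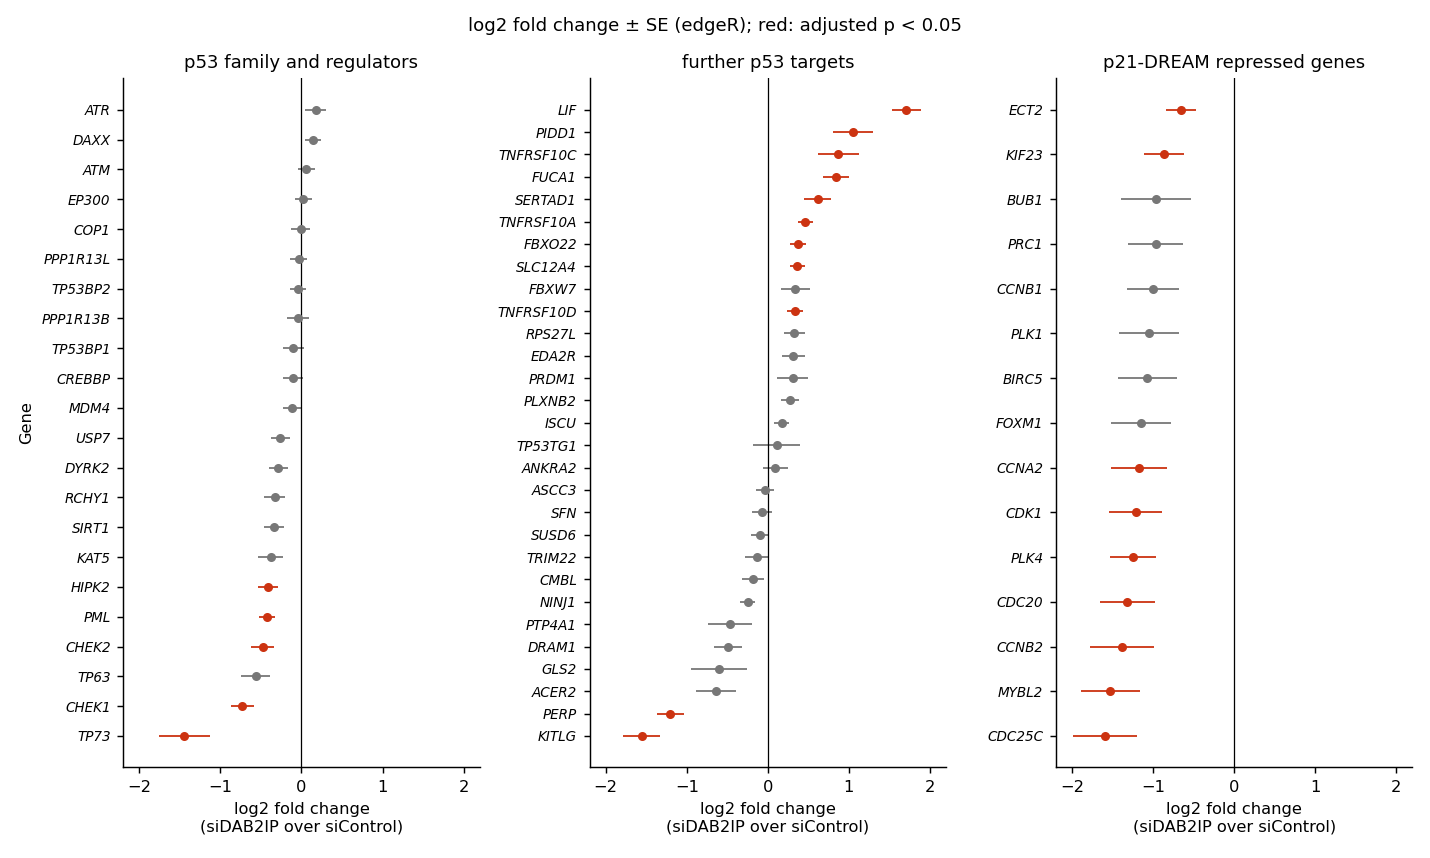
Log2 fold change of siDAB2IP over siControl with SE from edgeR (horizontal axis) for the tested genes (vertical axis) of the p53 family and regulators, further p53 targets and p21-DREAM repressed genes, with adjusted p under 0.05 in red. Among regulators the 5 red points lie below 0, further targets lie on both sides, from -1.56 for KITLG to 1.71 for LIF, and all 15 p21-DREAM genes lie below 0.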

How the data were processed

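RNA-seq data of 3 siControl and 3 siDAB2IP libraries of MCF10A were used. The authors deposited whole-number counts per gene, without normalization, and FPKM values, which divide counts by gene length and library total. The submitters' processing notes name STAR 2.6.1d, featureCounts 1.5.0-p3, DESeq2 1.20.0, edgeR 3.24.3 and hg38. The strand setting is not given in the sources used here. All 58735 genes matched GENCODE 29 in start, end and strand.

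Counts were filtered with filterByExpr (15430 genes tested), scaled by TMM and compared with edgeR 4.0.16 (R 4.3.3) by its two-sided quasi-likelihood test, with Benjamini-Hochberg adjustment over all genes tested. A gene was called at an adjusted p under 0.05. SEs come from the edgeR fit and, like the SDs, include the spread between libraries. The floor of 3 counts covers counting error only. The fit was tested on simulated data. Fold changes of single genes are the edgeR log2 fold changes put back on the linear scale.

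The p53 targets, roles and other lists were chosen with earlier results of these data known. All 32 targets are named. Called targets, CDKN1A and MDM2 get values in every library, as do genes singled out after their values were seen (PLK2, BTG2). DRAM1 was also named after its values were seen. Of other lists, at most the 10 called genes with the smallest p are named, with TP63, MDM4 and CDKN2A in any case. TP53COR1 was not matched by name, and 1 gene of the list of regulators is not reported here.

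Libraries of the same number deviated together from their group means (r = 0.26, 0.15 and 0.25 for numbers 1, 2 and 3, against -0.28 to 0.02 for other pairs), so the numbers were taken as pairs and a fit with that block is given where it changed a call. Alternatives were DESeq2 1.42.0, RLE and library size scaling, no filter, at least 10 counts in every library, an adjusted p under 0.01, limma 3.58.1 on log2(FPKM + 1) or log2(FPKM + 0.1), and leaving out each library. Leaving out both libraries numbered 3 is an alternative chosen after seeing the data.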

Additional observations from a re-analysis of the deposited data

How the results depend on the processing

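The count of p53 targets that rose (7) was 11 by DESeq2, 13 with no filter, 12 with the replicate block, 3 by limma on FPKM over all genes with a count and 3 at an adjusted p under 0.01, and ran from 3 to 10 without 1 library. The count that fell (0) was 1 by DESeq2, with no filter, with the block and without both libraries numbered 3, and 0 to 1 without 1 library. This was PLK2 with the block. Regulators that fell (5) were 3 with library size only, 3 by limma with either pseudocount, 0 by limma over all genes, 0 at an adjusted p under 0.01 and 1 to 3 without 1 library. Further targets that rose (9) were 1 by limma over all genes, 5 without both libraries numbered 3, 2 at an adjusted p under 0.01 and 2 to 6 without 1 library, and those that fell (2) were 1 by limma over all genes and 2 to 3 without 1 library. The p21-DREAM genes that fell (9) were 5 by DESeq2, 14 with no filter, 3 and 2 by limma with pseudocounts of 1 and 0.1, 0 by limma over all genes, 0 at an adjusted p under 0.01 and 0 to 13 without 1 library. No such gene rose in any of these settings. The cause of these shifts was not tested. Of these settings, shares over all genes are given above only for DESeq2, the block and the fit without both libraries numbered 3. Nothing particular to the listed genes is read from the counts in the other settings.

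The median log2 fold change of the p53 targets stayed between 0.21 and 0.43. Of 924 refits of 58 named genes, 728 kept direction and side of the threshold, 33 gained a call, 154 lost it and 9 changed sign. The sign changes were small. BBC3 was at -0.020 without both libraries numbered 3. With scaling by library size only, CYFIP2 was at 0.011 and POLH at 0.030. When single libraries were left out, CYFIP2 ran from -0.087 to 0.034, POLH from -0.096 to 0.038 and TIGAR from -0.065 to 0.10. With 3 libraries a group an exact permutation test of 1 gene cannot go below p = 0.1, and TP53AIP1 could not be tested at this depth.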
